A study of Mus musculus with 9 samples.

Results

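Mitochondrial fatty acid oxidation was described through 10 genes of its central route: Cpt1a, Cpt2, Slc25a20, Acadm, Acadl, Acadvl, Hadha, Hadhb, Hadh and Etfdh. They were taken by symbol from the array's annotation, out of 18193 genes with a probe set that names 1 gene, and the brightest probe set of each stands for the gene. Each array measured RNA from mucosa scraped off 1 of 3 equal lengths of mouse small intestine, SI1 (proximal), SI2 (middle) or SI3 (distal). The mice were male C57Bl/6J animals, an inbred strain, 9 weeks old when the diets began and fed them for 2 weeks. Every diet was rich in fat and differed in its oil, which was palm in HF-PO, olive in HF-OO and safflower in HF-SO; the ratio the labels call P/S was 1.0 in HF-PO, 4.6 in HF-OO and higher in HF-SO. Each of the 9 arrays held a single pool of RNA from 6 mice, so a segment has 3 pools, each of another diet, and a diet has 1 array in a segment. The 3 segments of a diet were paired by their diet label and taken to come from the same mice. The spread between mice is not measured, and a low-fat diet named in the design is not analysed here.

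Fatty acids are burned in mitochondria after they have been joined to carnitine at the outer membrane, carried across the inner membrane and rejoined to coenzyme A inside. There, repeated rounds of dehydrogenation, hydration, dehydrogenation and cleavage shorten the chain and release acetyl-CoA, and the electrons of the opening step pass through a flavoprotein to the respiratory chain. Enterocytes, the absorptive cells of the intestine, take up dietary fat, export most of it in lipoprotein particles and oxidise part of it, and many genes of the route are known targets of the fatty acid receptor PPARα.

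Signals are linear values of the MAS5 algorithm, scaled by the authors so that each array has a trimmed mean of 500, and a probe set's signal is compared only with itself in other arrays. Summed markers of enterocytes (6 of 7 listed had a probe set that names that gene alone) ranged from 155529 to 197098 over the 9 arrays. Counts of markers that rose, fell or were higher in this paragraph are those with a limma adjusted p under 0.05 from SI1 to SI3. Of all genes tested, 25.2% passed as higher in SI3 and 20.4% as lower. Of the 6 enterocyte markers, 3 rose, among them the brush border peptidase Anpep (22064 to 34337), and 1 fell, the alkaline phosphatase Alpi (37115 to 24371). Markers of exocrine pancreas summed to 29956 to 39000 in SI1 and to 247 to 484 in SI2 and SI3, although the design states that pancreatic tissue had been removed. Crypt and proliferation markers summed to 9645 to 13013 in SI1 and to 15755 to 19015 in SI3, and 4 of 5 rose. Goblet cell markers summed to 62240 to 70740.1 in SI1 and 109002 to 116246 in SI3, where 4 of 4 were higher. T cell markers summed to 5397 to 6283 in SI1 and 2318 to 2800.4 in SI3 (5 of 5 fell), and macrophage markers to 4995 to 5242 and 1237 to 1495 (3 of 3 fell). Paneth cell markers (2 of 3 listed had such a probe set) summed to 20426 to 25710 in SI1 and 48859.5 to 53207 in SI3, and 2 of 2 rose. Smooth muscle markers summed to 3442 to 3690 in SI1 and 2393 to 2780.5 in SI3, and 2 of 5 fell. Of 2 adipocyte markers tested, 1 rose, the adipocyte hormone Adipoq (34.8 to 296), and 1 fell, the lipid droplet protein Cidec (2187 to 835). Of hepatocyte markers 1 was tested, Ttr, and it rose (420 to 563). The part of all these cells in the results below was not tested. In such bulk samples, fewer cells of a type and less RNA per cell cannot be told apart.

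Along the intestine, 6 of the 10 genes passed the test as lower in SI3 than in SI1 and none passed as higher. The 6 were the acyl-CoA dehydrogenases Acadl and Acadvl, the electron carrier Etfdh, the hydroxyacyl-CoA dehydrogenase Hadh, the carnitine transferase Cpt2 and Hadhb, the β subunit of the trifunctional protein. The falls ran from 41.2% for Acadl to 17.6% for Hadhb. Of all 10977 genes tested, 20.4% were lower and 25.2% higher in SI3, 45.5% in all, by limma's moderated test on log2(signal + 16) with the diet pool as a block and adjusted p under 0.05. From SI2 to SI3, 3 of the 10 fell, Acadl, Acadvl and Etfdh, beside 11.9% of all genes lower and 11.5% higher, 23.4% in all. From SI1 to SI2 none of the 10 passed (adjusted p between 0.192 and 0.797, and 0 at an unadjusted p under 0.05), where 15.1% of all genes did, 7.83% lower and 7.23% higher.

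From SI1 to SI3, the median log2 difference of the 10 genes was -0.30, against 0.07 over all genes tested. It was -0.20 from SI2 to SI3 (all genes 0.04) and -0.01 from SI1 to SI2 (all genes 0.02). Signals did not overlap between SI1 and SI3 for 5 of the 10 genes (58.0% of all genes), between SI2 and SI3 for 6 (45.0%) and between SI1 and SI2 for 2 (38.5%). A joint test of any difference among the 3 segments passed for Acadvl, Etfdh and Acadl, 3 of 10, where 42.0% of all genes passed. In the share called in either direction the 10 genes were thus near the background or below it, except from SI1 to SI3, and every called difference was a fall towards SI3. The count of 6 rested on all 3 pools: without the HF-PO pool it was 4 (Acadl, Acadvl, Hadh and Etfdh), without the HF-SO pool 2 (Acadl and Acadvl) and without the HF-OO pool 1 (Acadvl). The count of 3 from SI2 to SI3 became 2 without the HF-PO pool and 0 without either of the others, and leaving the dim probe sets in the test gave 2 from SI1 to SI3 and 0 from SI2 to SI3. With the mean of all probe sets standing for a gene, 4 fell from SI1 to SI3 (Acadvl, Etfdh, Hadh and Cpt1a) and Slc25a20 rose.

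**Figure D1:**
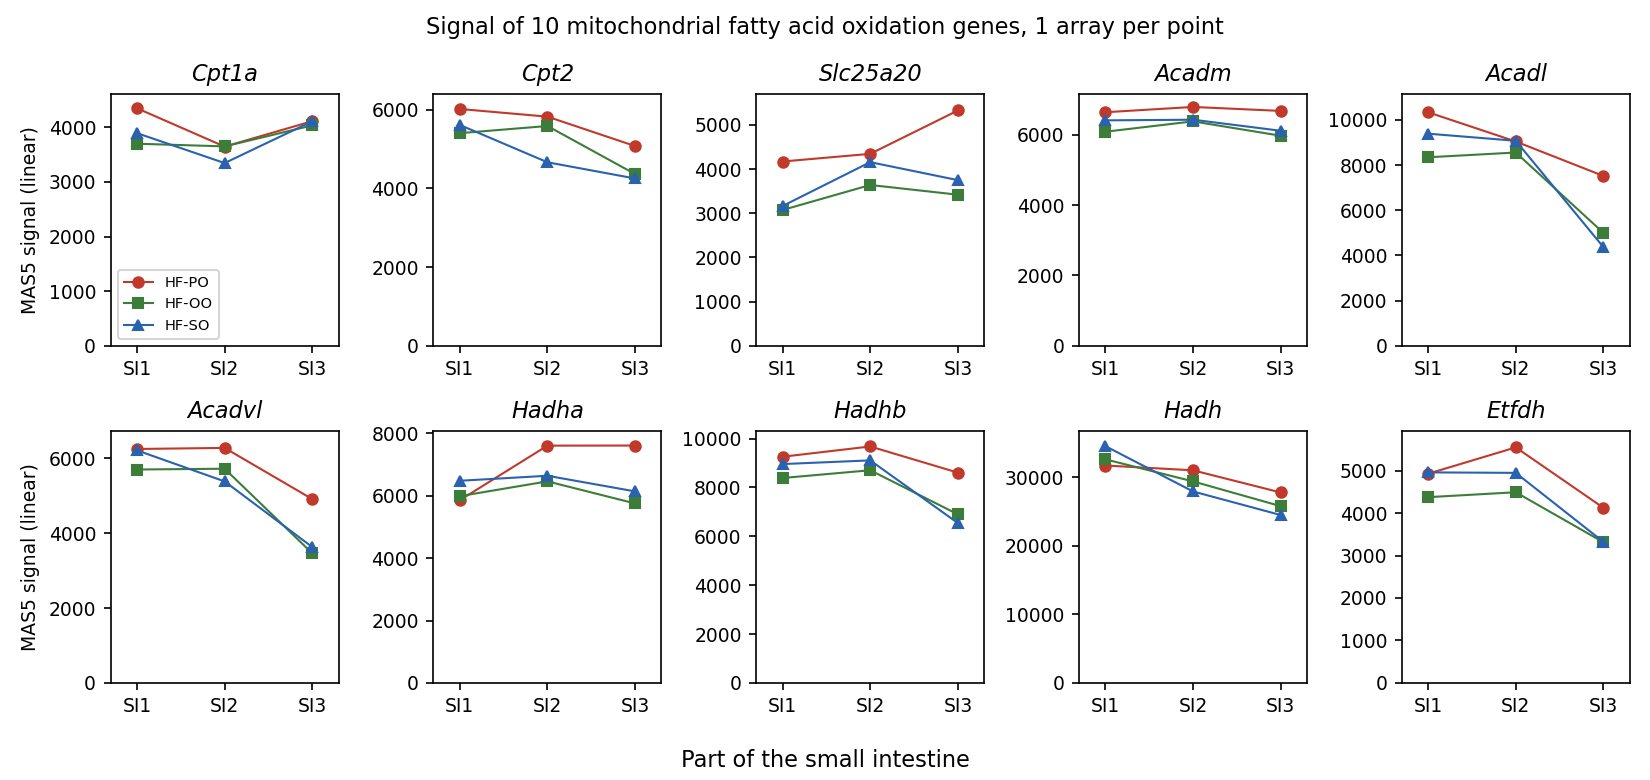
MAS5 signal of the brightest probe set of each of the 10 genes (vertical axes, starting at 0) in SI1, SI2 and SI3. There is 1 point per array coloured by diet, and a line joins the 3 arrays of a diet. Acadl stayed between 8343.5 and 10336 in SI1 and SI2 and lay between 4365 and 7516.5 in SI3, with the HF-PO array on top.

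The entry step is the carnitine shuttle. Cpt1a makes acylcarnitine at the outer membrane and sets the pace of the route. In the order HF-PO, HF-OO and HF-SO, its signals were 4348, 3699 and 3893 in SI1, 3646, 3650.2 and 3345 in SI2, and 4112, 4035 and 4109.9 in SI3. SI1 and SI3 overlapped, SI2 lay below SI3 in every pool, and the 3 arrays of SI3 lay closer together than those of any other segment and gene here (4086 ± 44.0, SD, n = 3 pools). The difference from SI1 to SI3 was 0.04 (SE 0.09, 95% interval -0.17 to 0.25, limma adjusted p = 0.734) and from SI2 to SI3 0.20 (SE 0.09, limma adjusted p = 0.148).

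Slc25a20 is the translocase that exchanges acylcarnitine for carnitine across the inner membrane. Its signals were 4171, 3073 and 3163 in SI1, 4345, 3639.8 and 4157 in SI2, and 5326, 3420.0 and 3749 in SI3, again for HF-PO, HF-OO and HF-SO. Every pool was higher in SI3 than in SI1, by 0.35, 0.15 and 0.24 on the log2 scale. The segments still overlapped, and the HF-PO array of SI1 (4171) lay above the HF-OO and HF-SO arrays of SI3. The difference from SI1 to SI3, 0.25 (SE 0.11, 95% interval -0.01 to 0.50), missed the threshold (limma adjusted p = 0.101). A further probe set, 1423109_s_at, went from 1898 ± 365 in SI1 to 2288 ± 371 in SI2 and 2826 ± 644 in SI3 and passed (0.56, SE 0.08, adjusted p = 0.00163).

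Cpt2 returns the acyl group to coenzyme A on the matrix side. It read 6021, 5406.5 and 5616 in SI1, 5826.5, 5588.5 and 4666 in SI2, and 5078, 4366 and 4254 in SI3. All 3 arrays of SI3 lay below all 3 of SI1, and each pool fell, by 0.24, 0.31 and 0.40 on the log2 scale. The fitted fall was -0.32 (SE 0.09, 95% interval -0.54 to -0.10, limma adjusted p = 0.0289), that is 19.7% lower. On the brightest probe sets, the shuttle thus held 1 gene that fell, Cpt2, and 2 whose estimates were at or above 0, Cpt1a and Slc25a20. The further probe sets of Cpt1a, described below, passed as lower in SI3 than in SI1 (-1.07 and -1.10, limma adjusted p = 0.0411 and 0.0279).

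The opening step of each round belongs to acyl-CoA dehydrogenases that differ in the chain length they prefer. Acadvl takes the longest chains and is bound to the inner membrane. For HF-PO, HF-OO and HF-SO its signals were 6253, 5704 and 6216 in SI1, 6282, 5725.5 and 5386 in SI2, and 4913, 3462.5 and 3631 in SI3. Every SI3 array lay below every array of the other segments, and SI1 and SI2 overlapped. From 6058 ± 307 in SI1 the mean went to 5798 ± 452 in SI2 and 4002 ± 793 in SI3 (SD, n = 3 pools). From SI1 to SI3, Acadvl fell by 0.61 on the log2 scale (SE 0.11, limma adjusted p = 0.00432) and by 0.55 from SI2 to SI3 (SE 0.11, limma adjusted p = 0.0150). From SI1 to SI3 it stayed past the threshold under each of 10 alternative settings (adjusted p between 0.00219 and 0.049), the single member to do so.

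Acadl, the long-chain enzyme, had the lowest estimate from SI1 to SI3 on the brightest probe sets. It gave 10336, 8343.5 and 9387.5 in SI1, 9042, 8554 and 9073 in SI2, and 7516.5, 4997 and 4365 in SI3. No array of SI3 reached the lowest of SI1 or SI2, and within SI3 the HF-PO array stood well above the other 2. Its fall from SI1 to SI3 was -0.77 (SE 0.15, 95% interval -1.12 to -0.41, limma adjusted p = 0.00638), a signal 41.2% lower, and -0.46, -0.74 and -1.10 in the HF-PO, HF-OO and HF-SO pools. From SI2 to SI3 it was -0.70 (SE 0.15, limma adjusted p = 0.0194). Without the HF-OO pool the fall from SI1 to SI3 had an adjusted p of 0.0534. With the mean of both its probe sets, of which the other is dim, it was -0.38 (adjusted p = 0.0509), smaller than those of Hadh (-0.78), Cpt1a (-0.71), Acadvl (-0.61) and Etfdh (-0.47) on that measure.

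Acadm, the medium-chain enzyme, showed none of this. It read 6644, 6089 and 6413 in SI1, 6794.5, 6384 and 6431.5 in SI2, and 6682, 5976 and 6117 in SI3, so that all segments overlapped. The difference from SI1 to SI3 was -0.03 (SE 0.08, 95% interval -0.21 to 0.15, limma adjusted p = 0.785), and this interval leaves out a fall as large as those estimated for Acadvl and Acadl.

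The start regions of 3 of these genes are printed because Acadl and Acadvl had the lowest estimates on the brightest probe sets while Cpt1a had an estimate near 0. They are RefSeq windows of build GRCm38.p6 from 250 bases before to 50 after the annotated start, 5′ to 3′ on the strand of the gene. Capitals mark AGGTCA, the hexamer that many nuclear receptors recognise, and GGGCGG, the GC box bound by Sp factors, on either strand. Acadl lies at chr1:66863260-66863559 on the minus strand, Acadvl at chr11:70015379-70015678 on the minus strand and Cpt1a at chr19:3323051-3323350 on the plus strand.
Acadl: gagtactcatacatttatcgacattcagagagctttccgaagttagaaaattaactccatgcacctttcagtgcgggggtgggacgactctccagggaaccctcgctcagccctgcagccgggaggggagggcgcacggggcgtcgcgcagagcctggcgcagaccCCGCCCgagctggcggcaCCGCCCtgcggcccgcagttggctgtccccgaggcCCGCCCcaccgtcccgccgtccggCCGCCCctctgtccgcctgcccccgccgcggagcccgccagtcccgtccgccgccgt
Acadvl: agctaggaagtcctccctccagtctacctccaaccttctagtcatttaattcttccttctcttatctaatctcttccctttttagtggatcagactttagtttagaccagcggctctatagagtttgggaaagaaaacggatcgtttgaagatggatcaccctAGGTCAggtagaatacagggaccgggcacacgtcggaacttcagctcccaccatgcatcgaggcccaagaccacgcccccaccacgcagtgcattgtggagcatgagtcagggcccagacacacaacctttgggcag
Cpt1a: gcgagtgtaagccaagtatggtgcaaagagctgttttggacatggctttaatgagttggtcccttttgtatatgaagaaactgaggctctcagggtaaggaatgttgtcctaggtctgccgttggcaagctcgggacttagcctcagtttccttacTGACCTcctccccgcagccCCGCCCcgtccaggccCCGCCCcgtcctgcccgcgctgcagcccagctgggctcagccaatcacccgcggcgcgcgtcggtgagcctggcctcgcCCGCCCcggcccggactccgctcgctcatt
The hexamer AGGTCA was in the windows of Cpt1a, Acadm and Acadvl, 3 of 10, beside 16.3% of 32851 RefSeq windows of this length. GGGCGG was in 8 of 10, all but Acadm and Acadvl, beside 35.7% of windows. The windows of Hadha and Hadhb overlap by 228 bases, and the only GGGCGG of Hadha is the same site as the first of Hadhb. The direct repeat of AGGTCA with 1 base between its copies, searched on both strands, was in 0 of 10 and in 0.0396% of windows. The 10 windows held 50.7% to 70.3% G and C (median 59.7%, all windows 52.7%), so GC-rich letters were common in them before any motif is counted.

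The later steps on long chains are carried out by the trifunctional protein, a complex of α subunits (Hadha, with hydratase and dehydrogenase activity) and β subunits (Hadhb, the thiolase). Hadha gave 5858, 5989 and 6482 in SI1, 7608.5, 6463 and 6642 in SI2, and 7612, 5754 and 6141 in SI3. The HF-PO pool rose by 0.38 between SI1 and SI3, while HF-OO and HF-SO differed by -0.06 and -0.08. The fitted difference was 0.08 (SE 0.11, 95% interval -0.18 to 0.34, limma adjusted p = 0.585).

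Hadhb gave 9257, 8387 and 8957 in SI1, 9677.5, 8704 and 9108 in SI2, and 8606, 6899.9 and 6543 in SI3. The HF-PO array of SI3 lay above the HF-OO array of SI1, so the groups overlapped, but each pool fell, by 0.10, 0.28 and 0.45. The fall of -0.28 (SE 0.10, 95% interval -0.51 to -0.05) passed the threshold narrowly, at limma adjusted p = 0.0498, and stayed past it in 2 of 10 alternatives. From SI2 to SI3 the difference was -0.33 (SE 0.10, limma adjusted p = 0.0512).

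The change of Hadhb minus that of Hadha from SI1 to SI3 was -0.48, -0.22 and -0.37 in the HF-PO, HF-OO and HF-SO pools (mean -0.36 ± 0.13, SD, n = 3). It was negative in all 3, and an exact two-sided sign-flip test gave p = 0.25, the smallest that 3 pools allow. These genes are printed because they start head to head: their windows overlap by 228 bases on opposite strands, Hadha at chr5:30154931-30155230 on the minus strand and Hadhb at chr5:30155003-30155302 on the plus strand, with the same capitals as above.
Hadha: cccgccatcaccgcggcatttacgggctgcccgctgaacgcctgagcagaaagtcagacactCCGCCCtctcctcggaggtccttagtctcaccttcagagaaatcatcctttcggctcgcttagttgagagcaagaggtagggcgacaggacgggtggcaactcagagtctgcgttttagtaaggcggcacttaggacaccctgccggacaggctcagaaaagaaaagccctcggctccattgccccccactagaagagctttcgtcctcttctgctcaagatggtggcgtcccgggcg
Hadhb: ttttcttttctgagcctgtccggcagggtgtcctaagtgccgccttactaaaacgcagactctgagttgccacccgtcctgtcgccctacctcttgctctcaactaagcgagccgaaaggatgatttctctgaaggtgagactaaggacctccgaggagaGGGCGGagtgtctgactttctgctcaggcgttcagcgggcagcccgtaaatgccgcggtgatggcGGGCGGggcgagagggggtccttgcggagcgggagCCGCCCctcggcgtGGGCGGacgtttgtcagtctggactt

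Hadh, the matrix enzyme for the dehydrogenation of short and medium hydroxyacyl chains, had signals of 31712, 32616 and 34545.5 in SI1, 31014, 29396 and 27929 in SI2, and 27778.5, 25783 and 24488 in SI3. In each pool the order was SI1, then SI2, then SI3, and no array of SI3 overlapped another segment. The fall from SI1 to SI3 was -0.34 (SE 0.09, 95% interval -0.56 to -0.13, limma adjusted p = 0.0212), and neither neighbouring pair of segments passed by itself, with -0.16 (adjusted p = 0.269) and -0.18 (adjusted p = 0.21).

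Etfdh passes the electrons of the acyl-CoA dehydrogenases to ubiquinone. It gave 4927, 4375 and 4959 in SI1, 5547, 4491 and 4947 in SI2, and 4123, 3313 and 3321 in SI3. All arrays of SI3 lay below those of SI1 and SI2, which overlapped. Etfdh fell by 0.41 from SI1 to SI3 (SE 0.09, limma adjusted p = 0.0101) and by 0.48 from SI2 to SI3 (SE 0.09, limma adjusted p = 0.0121), or 24.8% and 28.2% of the signal.

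**Figure D2:**
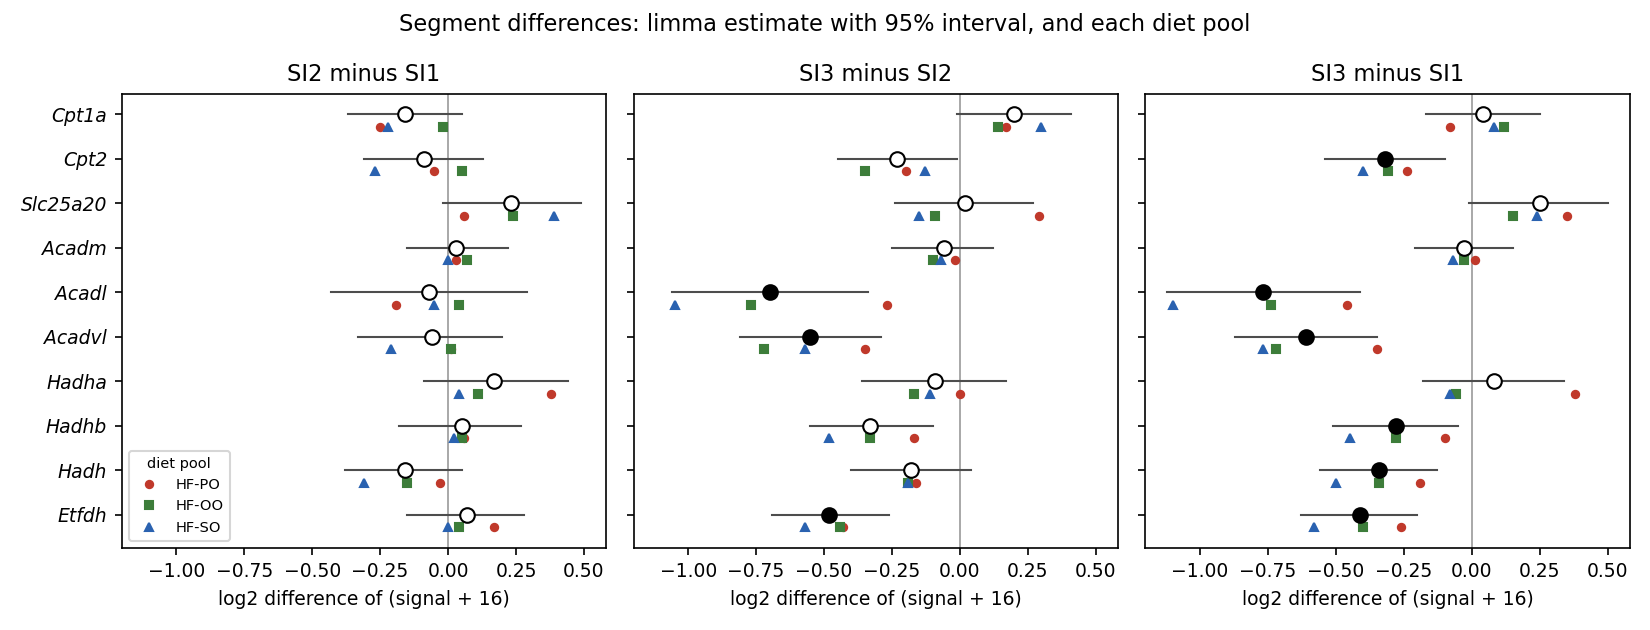
Difference in log2(signal + 16) of each gene between SI2 and SI1, SI3 and SI2, and SI3 and SI1 (horizontal axes). Shown are the limma estimate, its 95% interval and 1 point per diet pool. From SI1 to SI3 the estimates run from -0.77 (Acadl) to 0.25 (Slc25a20), and the HF-PO point lies nearest to 0 or above it for Acadl, Acadvl, Etfdh, Hadh, Cpt2 and Hadhb.

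The pools differed in size of fall. The median difference of the 10 genes from SI1 to SI3 was -0.15 in the HF-PO pool, with 7 genes lower. It was -0.29 in HF-OO and -0.43 in HF-SO, with 8 lower in each. Over all genes tested the medians were 0.04 in HF-PO, 0.08 in HF-OO and 0.06 in HF-SO. The share of all genes lower within a pool was not computed. All 6 called genes fell least in the HF-PO pool. With 1 pool per diet no test of that difference can be made.

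In SI3, all 10 genes had their highest signal on palm oil, where 32.7% of all genes tested did. The 10 genes share arrays, so these are not 10 independent observations, and no p is given for a diet. The log2 difference between HF-PO and the mean of the other diets had a median of 0.33 over the 10 genes and -0.02 over all genes, whose middle 50% lay between -0.16 and 0.12. It ran from 0.01 for Cpt1a to 0.68 for Acadl, and 9 of the 10 were above the upper quartile of all genes. In SI1 and SI2 the pattern was smaller: 7 and 8 of the 10 were highest on palm oil (all genes 34.6% and 32.5%), with medians of 0.09 and 0.14 (all genes 0.00 and -0.01). With the mean of all probe sets of a gene, SI2 had 4 of 10 highest on palm oil, near the share of all genes, and a median of 0.06.

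Gene by gene in SI3, Acadl on HF-PO (7516.5) was 1.50 times its HF-OO signal and 1.72 times its HF-SO signal. It alone was set apart, a term used here for a signal that departs by 1.5-fold or more, the same way, from each of the remaining diets, which 1.06% of all genes did upward in HF-PO. Slc25a20 came next, 1.56 and 1.42 times the HF-OO and HF-SO signals, then Acadvl (1.42 and 1.35), Hadha (1.32 and 1.24) and Hadhb (1.247 and 1.31). Etfdh was 1.24 times both others and Cpt2 1.16 and 1.19 times. Acadm (1.12 and 1.09), Hadh (1.08 and 1.13) and Cpt1a (1.02 and 1.00) differed least, and Cpt1a was not highest on HF-PO once arrays were quantile normalized. With the mean of all probe sets of a gene standing for it, 8 of 10 were highest, not Cpt1a and Hadh. Acadl lay just past the fold used and was no longer set apart with a pseudocount of 64 or after quantile normalization. With the alternative fold below 1.5, 3 genes were set apart. The share of all genes was computed at 1.5-fold only, so this count has no background to be read against.

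No gene of the 10 was set apart upward in HF-PO in SI1 or SI2 (0.565% and 0.328% of all genes), and none downward in any segment (0.957%, 1.12% and 1.33% in SI1, SI2 and SI3). None was set apart in HF-OO (1.20%, 1.73% and 1.61% of all genes) or in HF-SO (1.53%, 1.16% and 1.37%). Olive and safflower oil were close to each other in SI3: HF-SO minus HF-OO had a median of 0.02 over the 10 genes (all genes -0.01), ran from -0.19 to 0.13, and was above 0 for 5 of 10. In SI1, by contrast, HF-SO was above HF-OO for all 10 genes, with a median of 0.09 (all genes 0.01). The share of all genes with HF-SO above HF-OO was not computed for either segment. Enterocyte markers in SI1 also summed higher on HF-SO (189242) than on HF-OO (177127), while crypt markers summed to 9645 and 9709.

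Beside this, the enterocyte markers in SI3 summed to 197043, 197098 and 186451 on HF-PO, HF-OO and HF-SO, and their median difference of HF-PO from the others was 0.04. Crypt markers summed to 15755, 16927 and 19015, with a median of -0.32 and 0 of 5 highest on HF-PO, opposite to the 10 genes. In SI1 they ran the same way as the 10 genes, with 5 of 5 highest on HF-PO and a median of 0.37, and the enterocyte markers the other way, with 0 of 6 highest and a median of -0.23. Also highest on HF-PO in SI1 were 7 of 7 exocrine pancreas markers (median 0.36), 5 of 5 T cell markers (0.20) and 2 of 2 Paneth cell markers (0.29). Of goblet, smooth muscle and macrophage markers, 1 of 4, 2 of 5 and 1 of 3 were (-0.16, -0.02 and 0.06). T cell markers were highest on HF-PO for 5 of 5 in SI2 (0.23) and 2 of 5 in SI3 (0.05). Adipocyte markers in SI3 summed to 1499, 942 and 1003. The main part of that was Cidec, a lipid droplet protein, at 1180.5, 658 and 667, while Adipoq, the defining adipocyte hormone, was at 311, 269.8 and 307 and Lep, leptin, at 7.6, 13.5 and 29.1. The part of these cells in the diet pattern was not tested.

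**Figure D3:**
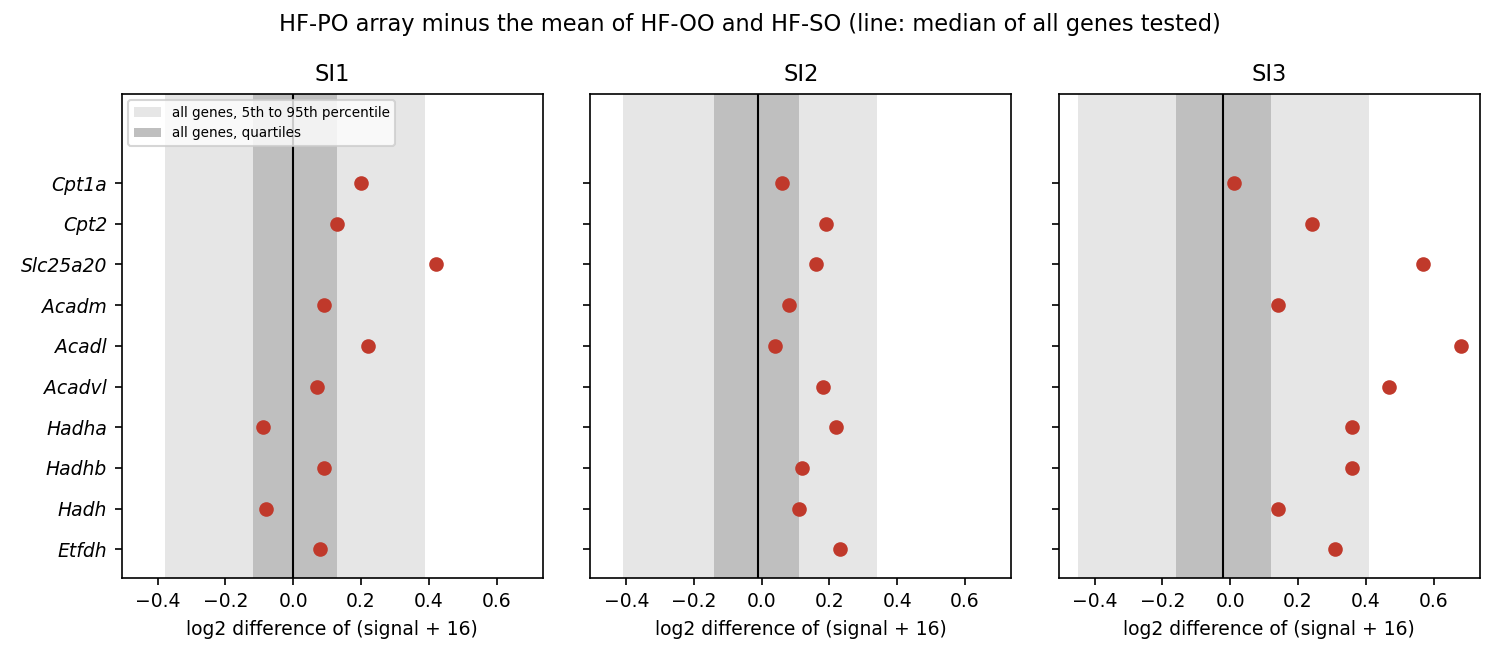
Difference in log2(signal + 16) between the HF-PO array and the mean of the HF-OO and HF-SO arrays for each gene in SI1, SI2 and SI3, over bands for the middle of all genes tested. In SI3 every point lies right of 0, from 0.01 (Cpt1a) to 0.68 (Acadl), while the median of all genes is -0.02.

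Over the 9 arrays, the 45 pairs of the 10 genes had Pearson correlations from -0.43 (Cpt1a with Etfdh) to 0.97 (Hadhb with Etfdh), with a median of 0.65 and 14 pairs above 0.8. Against the mean profile of the 10 genes, of which each is a part, Hadhb had r = 0.98, Acadl and Acadvl 0.95 and Etfdh 0.94. Cpt2 (0.89), Acadm (0.85) and Hadh (0.78) came next, then Hadha (0.52), Slc25a20 (0.34) and Cpt1a (-0.21). The arrays share segments, diet pools and scaling, so these values describe the 9 arrays and carry no p. The mean profile itself, centred on 0, was between -0.01 and 0.17 in SI1 and SI2, 0.06 on HF-PO in SI3, and -0.27 on both HF-OO and HF-SO in SI3.

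Of 11 other enzymes and carriers of the matrix route, all tested, 4 fell from SI1 to SI3 and 0 rose, beside 20.4% of all genes lower, with a list median of -0.22 (all genes 0.07). Acaa2, the thiolase for medium chains, went from 9039 ± 533 in SI1 to 6255 ± 508 in SI2 and 3220.5 ± 646 in SI3 (-1.50, SE 0.10, limma adjusted p = 6.42e-05). Acat1, which makes and splits acetoacetyl-CoA, went from 8122 ± 337 to 3910.1 ± 83.3 (-1.05), Decr1, the reductase for unsaturated chains, differed by -0.68 and Echs1, the short-chain hydratase, by -0.63. Hsd17b10 had the highest estimate, 0.30 (adjusted p = 0.127), and the flavoprotein subunits Etfa and Etfb, which hand electrons to Etfdh, did not pass (adjusted p = 0.0663 and 0.0722). In SI3, 8 of the 11 were highest on HF-PO (all genes 32.7%), with a median of 0.07.

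Among genes of entry and its control, 8 of 12 listed were tested. From SI1 to SI3, 3 fell and 1 rose, beside 20.4% of all genes lower and 25.2% higher. The median of the 8 was -0.17 (all genes 0.07). Crat, carnitine acetyltransferase, went from 2045 ± 265 to 724 ± 143 (-1.49, SE 0.09, limma adjusted p = 3.64e-05), and the acyl-CoA synthetase Acsl6 from 648 ± 74.9 to 40.3 ± 14.2, a level near the dim end of the array. Acsl4 differed by -1.16. Acaca, whose product malonyl-CoA inhibits Cpt1a, was the 1 that rose, from 259.8 ± 21.0 to 604 ± 64.4 (1.17, SE 0.12, limma adjusted p = 0.000397). Slc22a5, the carnitine importer, was highest on HF-PO in SI3 like Slc25a20, at 4769 on HF-PO against 3491 and 3385. In SI3, 6 of the 8 were highest on HF-PO (all genes 32.7%), with a median of 0.36.

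Of 10 regulators of the route, 6 fell from SI1 to SI3 and 1 rose, beside 20.4% of all genes lower and 25.2% higher. The median of the 10 was -0.55 (all genes 0.07). Pparg went from 570.5 ± 40.3 to 164 ± 74.6 (-1.79, SE 0.24, limma adjusted p = 0.00129). Ppara, the receptor named above, went from 1817 ± 86.0 to 1062 ± 43.2 (-0.77, SE 0.10, limma adjusted p = 0.000898), and the coactivators Ppargc1a and Ppargc1b differed by -1.01 and -0.69. Nrip1, a corepressor, and Ppard fell too (-0.58 and -0.52), and Hnf4a rose by 0.47, a call that was lost without the HF-PO pool and without the HF-OO pool (0 rose). On HF-PO in SI3, 6 of the 10 were highest (all genes 32.7%), with a median of 0.10, and Ppara read 1095, 1078 and 1013 in the 3 diets.

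In the peroxisomal counterpart of the route, 6 of 9 genes tested fell from SI1 to SI3 and 0 rose, beside 20.4% of all genes lower, with a median of -0.54 (4 fell without the HF-OO pool and 4 without the HF-SO pool). Acaa1b, a peroxisomal thiolase, had signals of 6817, 4422 and 4061 in SI1, 5454, 3561 and 2745 in SI2, and 2799, 644 and 671 in SI3, and was set apart in HF-PO in each segment. Ehhadh differed by -1.53, Decr2 by -1.05 and Pex11a by -0.90, while Acaa1a, the close copy of Acaa1b, was at 0.06 (adjusted p = 0.761), and how the probes share signal between such copies is uncertain. In SI3, 7 of the 9 were highest on HF-PO (all genes 32.7%), with a median of 0.40.

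General mitochondrial genes, 16 of the citric acid cycle, respiratory chain and import, give the comparison outside fat oxidation. From SI1 to SI3, 7 fell and 0 rose, beside 20.4% of all genes lower. Without the HF-OO pool 1 fell, and without the HF-SO pool 1. The median was -0.15 (all genes 0.07), Mdh2 at -0.46 being the lowest and Hspd1 at 0.21 (limma adjusted p = 0.128) the highest. On HF-PO in SI3, 6 of 16 were highest (all genes 32.7%) and the median difference was 0.00, where it was 0.33 for the 10 genes. The difference between the lists was not tested.

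**Figure D4:**
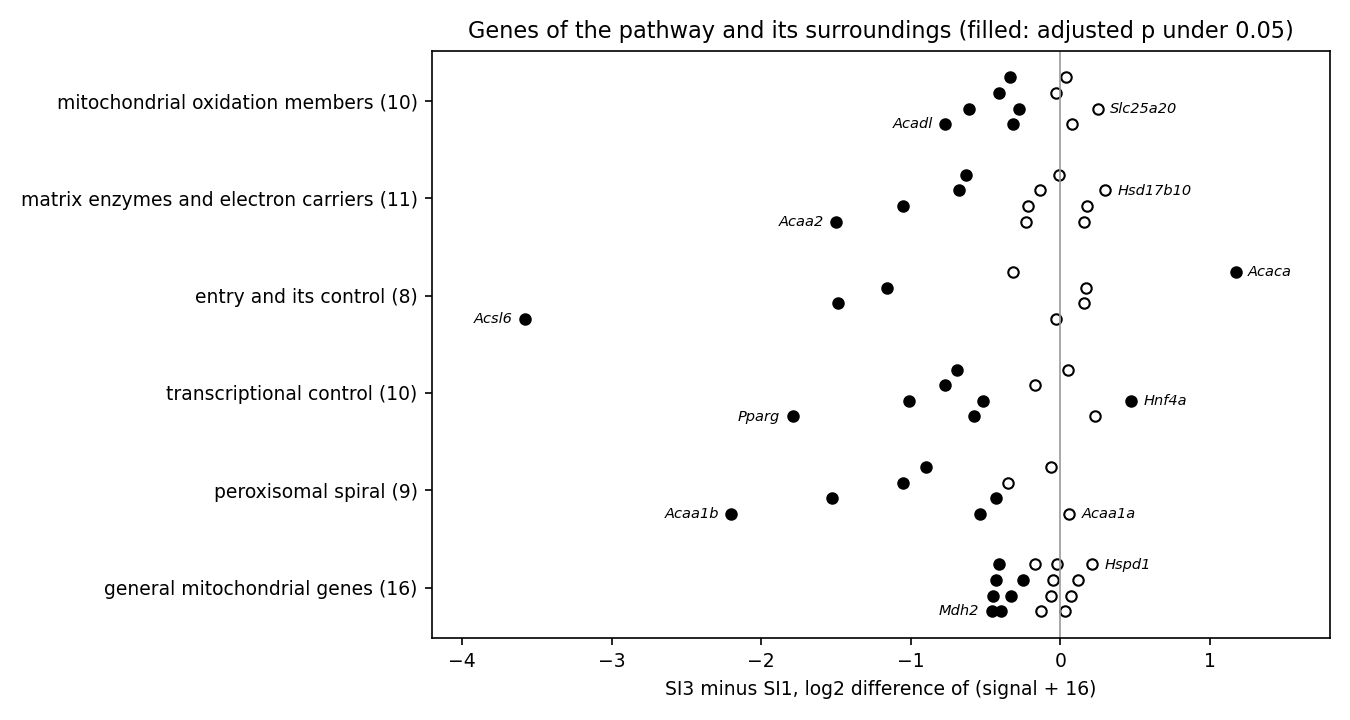
Limma difference in log2(signal + 16) from SI1 to SI3 (horizontal axis) for each tested gene of the pathway and of neighbouring lists, filled where adjusted p was under 0.05, with the lowest and highest gene of a list named. Called genes lie left of 0, except Acaca (1.17) and Hnf4a (0.47).

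The 10 genes have 20 probe sets on the array, of which 18 were tested; the dim further sets of Acadl and Etfdh were not. For Cpt1a, Cpt2, Slc25a20 and Hadhb a further set was on the other side of the threshold from SI1 to SI3 than the brightest. For Cpt1a, 1434866_x_at fell from 1341 ± 555.5 in SI1 to 597 ± 83.4 in SI3 (-1.07, SE 0.35, adjusted p = 0.0411) and 1438156_x_at from 459.6 ± 232 to 189.8 ± 16.2 (-1.10, SE 0.32, adjusted p = 0.0279), where the brightest, 1460409_at, was at 0.04. In SI1 both dimmer sets read highest on HF-PO (1908 and 722) and lowest on HF-SO (797 and 284). Both carry the suffix that marks probes shared with other sequences, and the direction for Cpt1a is uncertain to that extent.

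For Hadhb, 1437172_x_at fell by 0.84 (SE 0.15, adjusted p = 0.00402) and 1442732_at did not pass (0.21, adjusted p = 0.329). For Hadh, 1460184_at fell by 0.28 (SE 0.09, adjusted p = 0.0458), close to the brightest set, and 1436756_x_at by 1.72 (SE 0.53, adjusted p = 0.034), with signals in SI3 of 151, 356 and 819 on HF-PO, HF-OO and HF-SO. That order is the reverse of the brightest set of Hadh, which carries the same suffix. For Slc25a20 the dimmer set gave the larger rise, as above, and Acadm, Acadvl and Hadha have 1 probe set each. The further set of Cpt2 was dim, with signals from 55.0 to 166, and did not pass (-0.10, adjusted p = 0.744).

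**Figure D5:**
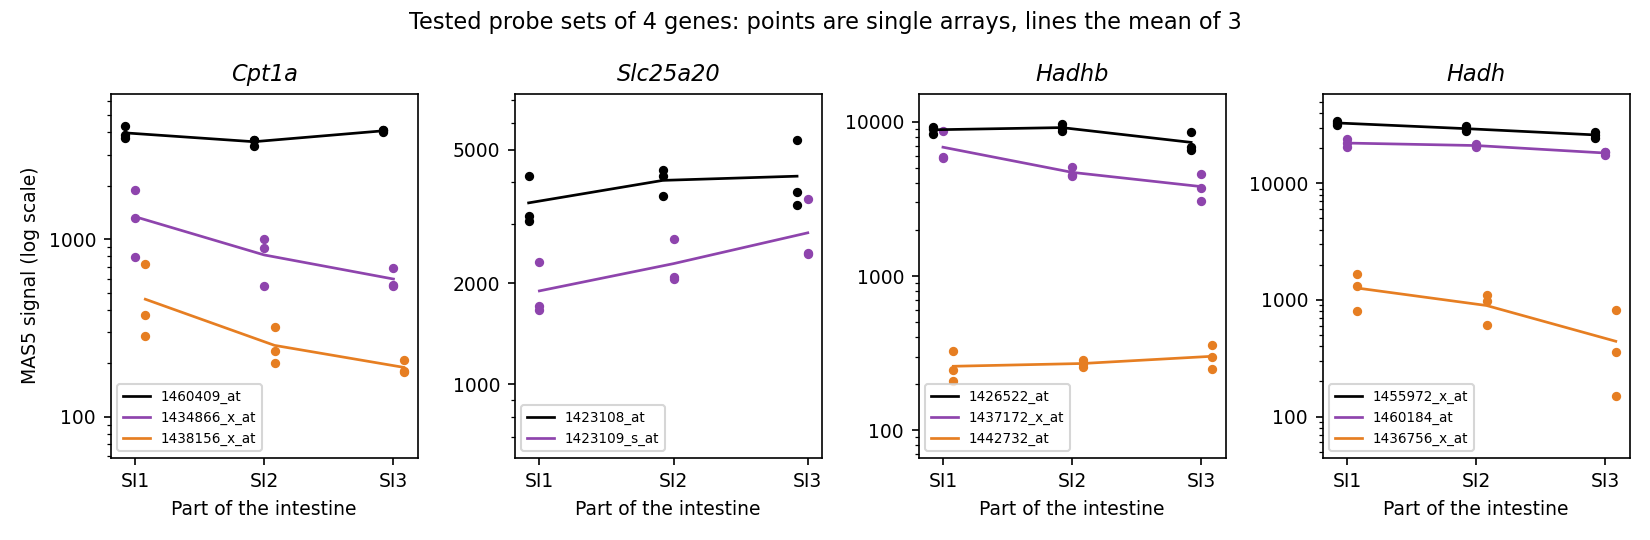
MAS5 signal on a log axis of every tested probe set of Cpt1a, Slc25a20, Hadhb and Hadh in SI1, SI2 and SI3, with 1 point per array and a line through the mean of 3 pools. The brightest set of Cpt1a has means of 3980.2, 3547 and 4085.5 in SI1, SI2 and SI3, while the dimmer ones fall to 597 and 189.8 in SI3.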

How the data were processed

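The deposited table holds 1 intensity per probe set and array, the linear signal of MAS5 per the submitters' processing notes; scaled by the authors to a trimmed mean (2%) of 500, as its values show. Array medians were 94.4 to 105.9. The number of arrays limits the precision. In the array's annotation, 34945 probe sets had 1 gene symbol, 932 several and 9160 none. From these signals, log2(signal + 16) was fitted with limma 3.58.1 in R 4.3.3, with segment and diet pool as terms, all 9 arrays and 4 residual degrees of freedom, over 22519 of 45037 probe sets with a mean at or above the median of 6.80, leaving out 64 controls; Benjamini-Hochberg adjustment ran over all of them. A gene's brightest probe set stands for it, and 10977 genes were tested. Segments were paired by the diet in the labels, and those of a diet were taken to come from the same 6 mice. Departures from segment means correlated at -0.05 to 0.15 within pools and -0.13 to 0.05 between. The script was tested on simulated data. Alternatives were another pseudocount, no filter, quantile normalization, 75th percentile centring, no block, each pool left out, and the mean of a gene's probe sets. Named were all 10 members, the extreme and opposing genes of each list and the 5 genes most like the members. Members and lists were chosen with earlier results of these data known. Promoter windows are RefSeq's, GRCm38.p6.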

Additional observations from a re-analysis of the deposited data

Results flagged for a closer look

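For 4 of the 10 genes, the HF-PO pool moved in another direction than both other pools between 2 segments. Only HF-PO was searched for in this way, and the share of all genes was not computed. Other pools stood alone as well. From SI1 to SI2, HF-OO did so for Cpt2 (0.05 against -0.05 on HF-PO and -0.27 on HF-SO). It also did for Acadl (0.04 against -0.19 and -0.05). HF-SO did so for Acadvl (-0.21 against 0.01 on both others). With 1 pool per diet, none of these differences was tested. From SI1 to SI3, the log2 difference of Hadha was 0.38 in the HF-PO pool and -0.06 and -0.08 in the HF-OO and HF-SO pools. For Cpt1a it was -0.08 on HF-PO against 0.12 and 0.08, and for Acadm 0.01 against -0.03 and -0.07. From SI2 to SI3, Slc25a20 differed by 0.29 on HF-PO and by -0.09 and -0.15 on HF-OO and HF-SO, and Hadha by 0.00 against -0.17 and -0.11. The differences of Acadm, and of Hadha from SI2 to SI3 on HF-PO, are at or near 0, so their direction carries little.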

How the results depend on the processing

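Over 300 combinations of a gene, a pair of segments and an alternative, 250 kept direction and side of the threshold. Another 32 lost the call, 6 gained it and 12 turned direction, and the cause was not tested. Only the 6 genes called from SI1 to SI3 and the 3 from SI2 to SI3 had a call to lose. From SI1 to SI3, Acadvl kept it in 10 of 10 alternatives, Acadl in 8, Etfdh and Hadh in 7 each, Cpt2 in 5 and Hadhb in 2. From SI2 to SI3, Acadvl kept it in 7 and Acadl and Etfdh in 6 each. Without the filter on low signals, genes called numbered 2 (SI1 to SI3), 0 (SI2 to SI3) and 0 (any segment, 3 with the filter), and probe sets called 604 (SI1 to SI2; 3375 with it) and 1681 (SI2 to SI3; 4787). Leaving out a pool gave 1 to 4 genes from SI1 to SI3, 0 to 2 from SI2 to SI3 and 0 to 3 for any segment, and 5551 to 7581 probe sets from SI1 to SI3 (9969 with all pools), 1317 to 2394 from SI2 to SI3 and 537 to 811 from SI1 to SI2. Any segment gave 6 genes with a pseudocount of 64 and 6 with 75th percentile centring. Genes set apart in HF-PO in SI3 were 0 with a pseudocount of 64, quantile normalization or the mean of all probe sets. They were 0 with a fold of 2 and 3 with the alternative fold below 1.5, where SI1 had 1. No share of all genes was computed at either alternative fold, so those counts cannot be set against a background. Direction turned for Acadm from SI1 to SI3 (0.01, quantile), Cpt1a from SI1 to SI3 (-0.02, 75th percentile; -0.71 with the mean of its probe sets, adjusted p = 0.039) and from SI2 to SI3 (-0.19, mean of probe sets), Cpt2 (0.26) and Hadhb (-0.13) from SI1 to SI2 (mean of probe sets), and Slc25a20 from SI2 to SI3 (-0.02, 75th percentile). Leaving out a pool gave -0.10 to 0.01 for Acadvl from SI1 to SI2, -0.16 to 0.00 for Cpt2 from SI1 to SI2, 0.00 to 0.10 for Cpt1a from SI1 to SI3, -0.07 to 0.16 for Hadha from SI1 to SI3 and -0.12 to 0.10 for Slc25a20 from SI2 to SI3. Without the replicate block, 5 genes were called from SI1 to SI3 (Hadhb lost, adjusted p = 0.071), 3 from SI2 to SI3 and 0 from SI1 to SI2, and the block moved no count of these genes by over 1.5 times. Among the regulators, 2 rose from SI2 to SI3 without the block and 0 with it.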

Other observations

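The 5 genes outside the route whose signals over the 9 arrays were most like the mean profile of the 10 were Btd (r = 0.99), the biotin-recycling enzyme biotinidase, Galnt6 (0.97), a glycosyltransferase that starts mucin-type O-glycans, Nudt9 (0.97), a mitochondrial ADP-ribose hydrolase, Rnf167 (0.96), a ubiquitin ligase, and Acaa1b (0.96). They were picked for this likeness among all genes tested, so the values carry no test. Btd read 1168.5, 1049 and 1143.5 on HF-PO, HF-OO and HF-SO in SI1, 1155, 1038 and 1064 in SI2, and 1124, 801 and 823 in SI3. The HF-PO array of SI3 lay within the range of the other segments and the HF-OO and HF-SO arrays lay below it. Rnf167 read 5633, 4386 and 3954 in SI3, where its mean was 4658 ± 872, against 6227 ± 572 in SI2.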
